A study of Mus musculus with 35 samples.

Results

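Collagens and laminins are the structural proteins of the extracellular matrix, and their genes were followed here in bulk messenger RNA of mouse retina during diabetes, after loss of microglia and after recovery from that loss. The members were all genes whose symbol is a collagen alpha chain (Col, number, a, number) or a laminin chain (Lama, Lamb or Lamc with a number), which gave 55 of the 25655 genes in the authors' deposited tables. Of these, 18 were basement membrane genes (11 laminin chains, the collagen IV chains Col4a1 to Col4a6, and Col18a1) and 37 were fibrillar and other collagens. The series holds 35 retina samples in 7 groups, all given as wild-type by genotype, with CX3 in their titles. D6 was diabetic for 6 weeks (n = 5). D8 depleted was diabetic for 8 weeks with 2 weeks of DTx (n = 4). D8 was diabetic for 8 weeks with PBS (n = 5). D10 repopulated was diabetic for 10 weeks with 2 weeks of DTx and 2 weeks of recovery (n = 5). D10 was diabetic for 10 weeks with PBS (n = 5). ND repopulated was non-diabetic with 2 weeks of DTx and 2 weeks of recovery (n = 5). ND was non-diabetic without treatment (n = 6). The series text names PLX-5622, a drug against microglia, as the depleting agent, whereas the sample labels name DTx. The labels do not say how diabetes was induced, give no age, and do not say that each sample came from a separate animal, so p-values may measure only the spread between samples. PBS is given for D8 and D10 alone, and the title numbers of those groups form a run apart from the other groups. These features cannot be told apart from the comparisons of D8 or D10 with any other group.

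A basement membrane is a thin sheet in which a laminin network and a collagen IV network are linked by nidogen and perlecan, and cells hold on to it through integrins and dystroglycan. In the eye such sheets form the inner limiting membrane, part of Bruch's membrane, the lens capsule and the sleeve around each retinal capillary, and thickening of the capillary sleeve is a classical lesion of diabetic retinopathy. Fibrillar collagens give tissues tensile strength, and collagens II, V, IX and XI build the fine fibrils of the vitreous, while collagen VI forms beaded microfibrils around cells.

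The authors' deposited tables give 1 comparison of 2 groups each and no values per sample, so no SD can be given, and the depth of the libraries is unknown. A gene is called where the authors' deposited FDR p was under 0.05, and fold changes are on the log2 scale, the first named group over the second. Each standard error (SE) was derived from the deposited fold change and p-value. Group means were read from the column that holds the larger of the 2 means, whose unit is not stated, so levels are compared within a gene and never between genes. That column gave a mean for 222 of the 385 pairs of member and group (57.7%) and an upper limit for the other 163. As a check of the labels, 10 of 10 microglia markers were lower in D8 depleted than in D8 in the authors' deposited table, with a median log2 of -4.22, and Cx3cr1 had a log2 of -6.98. The group means of 10 markers of retinal neurons and Muller glia summed to at most 9144 to 10467 in the 7 groups in the authors' deposited tables. Those sums take upper limits for 3 to 7 of the 10.

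Against ND, more of the called collagens and laminins were higher than lower in each diabetic group. In the authors' deposited table of D6 against ND, 20 of 55 members were higher and 0 lower, beside 14.1% higher and 9.31% lower among all genes tested. The 20 comprised 3 of 18 basement membrane genes and 17 of 37 other collagens. The median SE there was 0.27 for the basement membrane genes, 0.19 for the other collagens and 0.16 for all genes tested. A given log2 was thus less readily called in the basement membrane genes. D8 against ND had 4 members higher and 1 lower in the authors' deposited table, all 5 outside the basement membrane, beside 2.33% and 0.583% of all genes. D10 against ND had 4 members higher (2 of them basement membrane genes) and 2 lower in the authors' deposited table, beside 5.59% and 1.41%. D8 depleted against ND gave the longest list, 21 higher (3 of them basement membrane genes) and 2 lower in the authors' deposited table, beside 15.5% and 13% of all genes. D10 repopulated against ND had 8 higher (3 of them basement membrane genes) and 2 lower in the authors' deposited table, beside 7.49% and 4.19%. Without diabetes the count was 0: the authors' deposited table called no member in ND repopulated against ND, where 0.0844% of all genes were higher and 0.0714% lower, and 3 of 54 members had an unadjusted p under 0.05 (Col5a3, Col8a2 and Col11a2). Col10a1 had no FDR p in that table and was tested in the other 7. Without the 40% of genes with the smallest entries in the column of larger means, whose scaling by gene length is not stated, 10 of the 23 members kept were called in D6 and 11 of 25 in D8 depleted over ND, beside 31.5% and 35.8% of all genes kept in the authors' deposited tables. In D10 repopulated over ND, 2 of the 22 members kept were called, beside 12.6% of all genes kept.

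**Figure D1:**
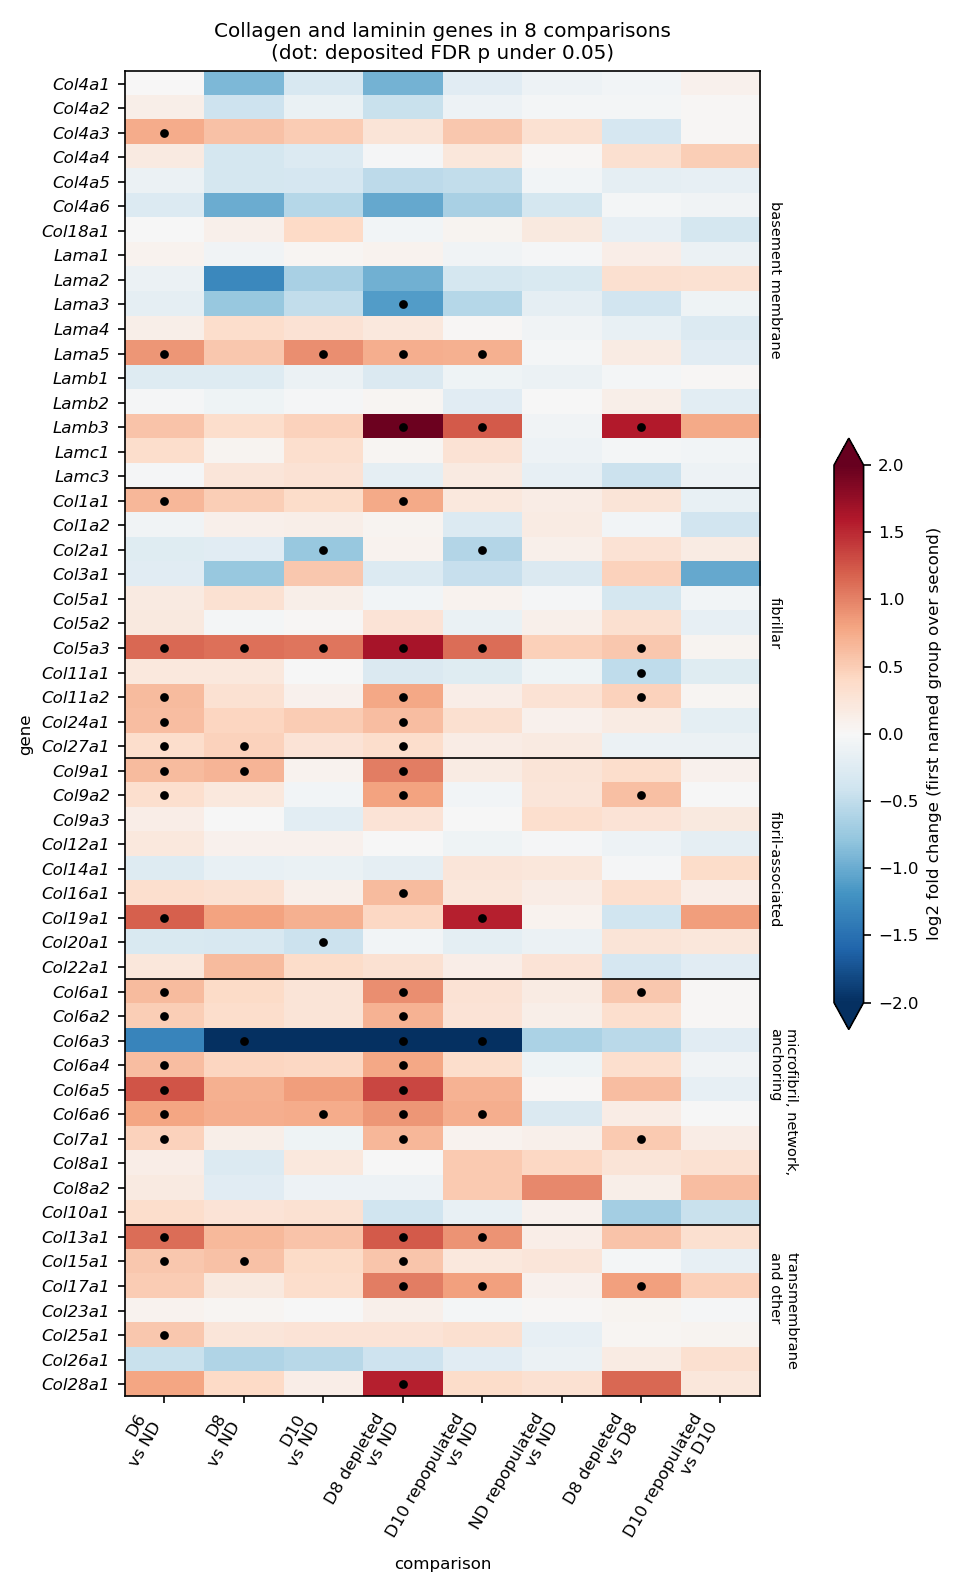
Heat map of the deposited log2 fold changes of 54 collagen and laminin genes (rows, grouped by class) in 8 comparisons (columns), with colour running from -2 to 2 and dots on genes whose deposited FDR p was under 0.05. Dots gather in the columns of D6 and D8 depleted against ND, where 20 and 23 of all 55 members were called, and none falls in the columns of ND repopulated against ND or D10 repopulated against D10.

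Medians were higher outside the basement membrane than within it in both of the comparisons with the most calls. Over all 55 members the median log2 was 0.21 in D6 and 0.21 in D8 depleted against ND in the authors' deposited tables, beside 0.04 and 0.02 over all genes tested. The 37 collagens outside the basement membrane had medians of 0.35 in D6 and 0.36 in D8 depleted, while the 18 basement membrane genes had 0.04 and -0.04, again from the authors' deposited tables. Of the members, 29 were called in at least 1 of the authors' 8 deposited tables, 24 of them higher wherever called and 5 lower wherever called (Lama3, Col2a1, Col6a3, Col11a1 and Col20a1). The matching share over all genes was not counted, so these counts are no result particular to the members. In D8 depleted over ND alone, 15.5% of all genes were higher and 13% lower. The 26 members that were called in none of the authors' deposited tables, 13 of them basement membrane genes, spanned log2 values from -1.29 to 0.96. Closest to the threshold among them was Lamc1, with a smallest FDR p of 0.0529 in the authors' deposited tables. These 6 comparisons share the ND samples, so they are not separate lines of evidence. In bulk retina, a change in the number of cells that make a collagen and a change in RNA per cell cannot be told apart.

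Among the laminin chains, Lama5, the alpha chain of the main laminin of mature vessels and epithelia (chr2:179818166-179867652, minus strand, GRCm39), was higher in 4 of the 5 diabetic groups over ND. Its mean in the authors' deposited tables was 5.78 in D6, 5.48 in D8 depleted, 4.77 in D8, 5.30 in D10 repopulated and 6.20 in D10, against at most 3.22 in ND repopulated and in ND. All 5 diabetic groups were above the non-diabetic limit, and D8 was the lowest of them. The log2 over ND in the authors' deposited tables was 0.88 ± 0.20 (SE) in D6 (FDR p = 0.000177), 0.72 ± 0.21 in D8 depleted, 0.71 ± 0.20 in D10 repopulated (FDR p = 0.00508) and 0.93 ± 0.20 in D10 (FDR p = 7.70e-05). The log2 of Lama5 in D8 was 0.54 ± 0.20, which was not called in the authors' deposited table.

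Lamb3, a beta chain of the laminin under epithelia (chr1:192890007-193026186, plus strand, GRCm39), was highest in the 2 groups that had received DTx under diabetes. Its mean in the authors' deposited tables was 0.229 in D6, 0.630 in D8 depleted, 0.205 in D8, 0.370 in D10 repopulated and 0.219 in D10, against at most 0.157 in ND repopulated and in ND. It rose in D8 depleted over ND by a log2 of 1.96 ± 0.37 (FDR p = 3.90e-06) and in D10 repopulated over ND by 1.23 ± 0.35 (FDR p = 0.00746) in the authors' deposited tables. Lama3, the alpha chain that pairs with it, went the other way in D8 depleted over ND, with a log2 of -1.12 ± 0.39 (FDR p = 0.0167) in the authors' deposited table.

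Markers of surface epithelium, a tissue that makes this laminin, were also higher in some of these groups. Of 10 such markers, 8 were higher in D8 depleted, 6 in D10 repopulated, 3 in D10, 0 in D8, 0 in D6 and 0 in ND repopulated over ND in the authors' deposited tables. Their means in the authors' deposited tables summed to at most 10.2 in D6, 53.6 in D8 depleted, 10.4 in D8, 45.4 in D10 repopulated and 19.5 in D10, against 7.14 in ND repopulated and 7.02 in ND. Each of those sums is a limit, since it takes an upper limit for 2 to 8 of the 10 markers. D8 depleted and D10 repopulated had the highest values both of Lamb3 and of these sums. Markers of astrocytes and gliosis were higher in the diabetic groups too: 7 of 10 in D6, 5 in D8 depleted, 5 in D8, 7 in D10 repopulated, 6 in D10 and 0 in ND repopulated, all over ND in the authors' deposited tables. Their summed means in the authors' deposited tables, with upper limits for 1 to 8 of 10, were at most 382 in D6, 477 in D8 depleted, 269.6 in D8, 487 in D10 repopulated and 616 in D10, against 117 in ND repopulated and 114 in ND. The part of either marker list in the laminin values was not tested.

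**Figure D2:**
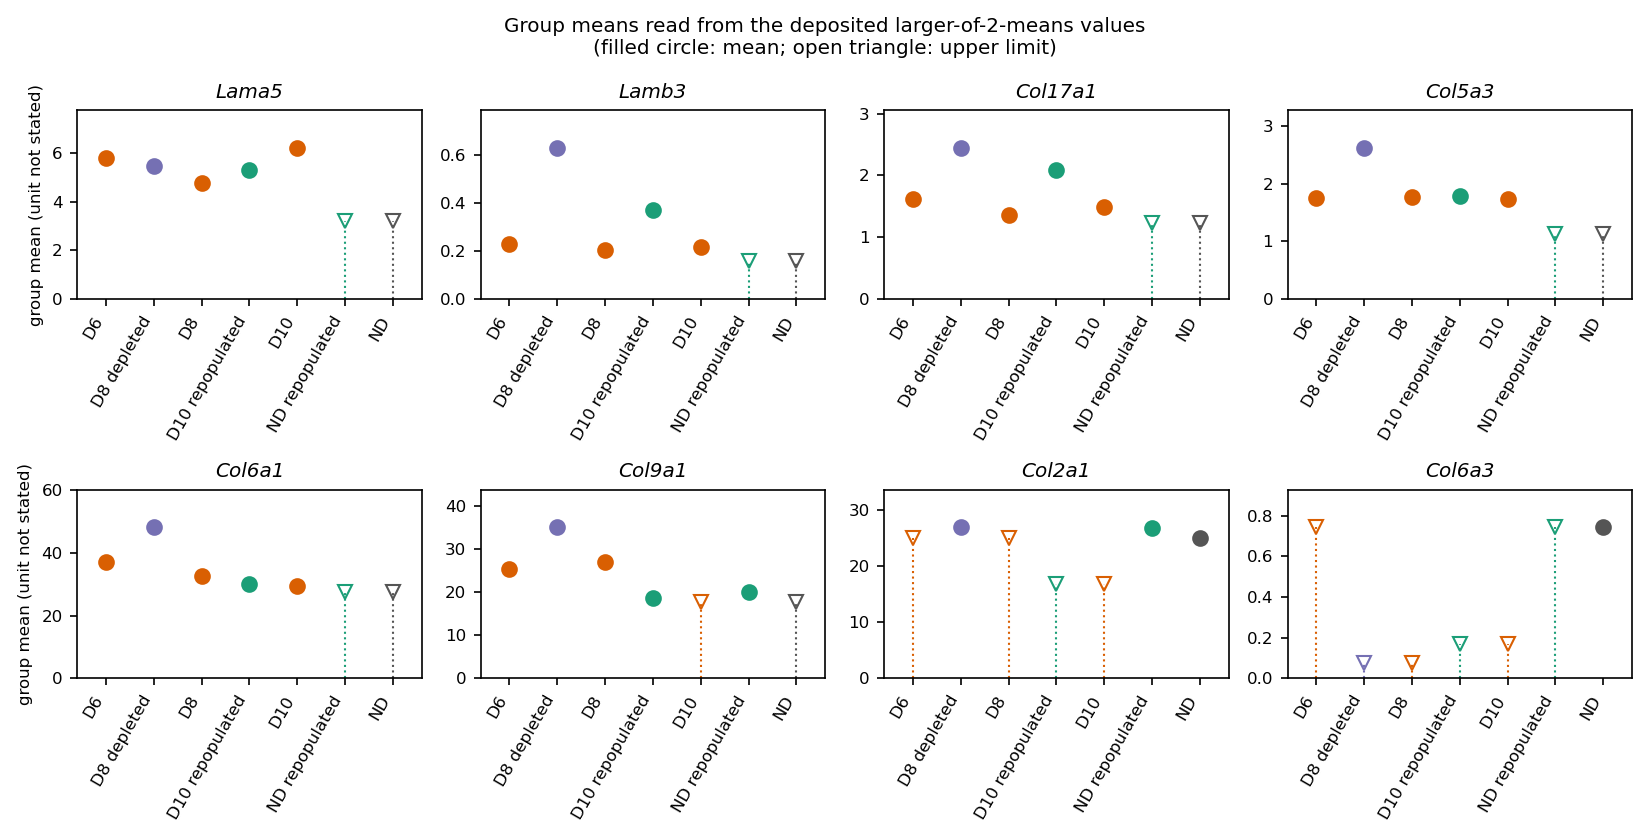
Group means of 8 members in the 7 groups, in the unstated unit of the authors' deposited tables; filled circles are means and open triangles upper limits, with orange for diabetic, purple for depleted, green for repopulated and grey for ND. Lama5, Lamb3, Col17a1, Col5a3 and Col6a1 lie above the ND limit in all 5 diabetic groups. Lamb3, Col17a1, Col5a3, Col6a1 and Col9a1 are highest in D8 depleted.

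The laminin chains Lama1, Lama2, Lama4, Lamb1, Lamb2, Lamc1 and Lamc3 were called in no table. Lama1, the alpha chain of the inner limiting membrane, ranged from -0.11 to 0.13 in log2 over the authors' 8 deposited tables. Lamb2, the beta chain of neural and synaptic laminins, ranged from -0.23 to 0.11, and Lamb1, its embryonic and vascular relative, from -0.28 to 0.02 in the authors' deposited tables. Lama4, the endothelial alpha chain, ranged from -0.27 to 0.35 in the authors' deposited tables, and Lamc1, the most widely used gamma chain, from -0.11 to 0.35. Lamc3, a retinal and cortical gamma chain, ranged from -0.42 to 0.29 in the authors' deposited tables. Lama2, the alpha chain of muscle and nerve basement membranes, had a deposited log2 of -1.29 ± 0.43 in D8 and -0.97 ± 0.46 in D8 depleted over ND, with a smallest FDR p of 0.0840 in the authors' deposited tables.

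Collagen IV is the network-forming collagen of every basement membrane, and its widespread chains Col4a1 (chr8:11248423-11362826, minus strand, GRCm39) and Col4a2 (chr8:11362805-11499287, plus strand, GRCm39) lie head to head. Whether the authors' counting used the strand of the reads is not given, so reads in the short stretch that both genes cover cannot be assigned. The start regions are shown because the pair shares a stretch: of the RefSeq windows of 300 bases (250 before to 50 after the start, GRCm38.p6), 78 bases are common to both, at chr8:11312777-11312854. Each line gives the gene's own strand, 5′ to 3′, with the shared bases in capitals.
Col4a1: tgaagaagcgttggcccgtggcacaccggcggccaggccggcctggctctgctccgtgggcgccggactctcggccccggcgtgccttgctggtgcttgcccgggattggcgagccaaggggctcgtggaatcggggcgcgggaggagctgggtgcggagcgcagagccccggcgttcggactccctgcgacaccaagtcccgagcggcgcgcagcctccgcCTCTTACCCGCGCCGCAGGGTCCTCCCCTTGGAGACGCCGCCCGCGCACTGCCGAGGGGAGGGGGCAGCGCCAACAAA
Col4a2: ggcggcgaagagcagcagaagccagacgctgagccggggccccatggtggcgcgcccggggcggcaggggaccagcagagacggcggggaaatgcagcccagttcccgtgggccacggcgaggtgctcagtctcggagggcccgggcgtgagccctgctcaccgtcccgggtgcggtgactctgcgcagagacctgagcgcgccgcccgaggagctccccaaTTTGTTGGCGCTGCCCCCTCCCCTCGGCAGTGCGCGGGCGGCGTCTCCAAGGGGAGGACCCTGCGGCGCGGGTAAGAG

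Col4a1 was at most 20.1 in D6, 11.1 in D8 depleted, 11.1 in D8, 17.5 in D10 repopulated, 17.5 in D10 and 20.1 in ND repopulated, against a mean of 20.1 in ND, in the authors' deposited tables. Its log2 over ND in the authors' deposited tables was 0.01 ± 0.48 in D6, -0.94 ± 0.51 in D8 depleted, -0.90 ± 0.48 in D8, -0.23 ± 0.48 in D10 repopulated, -0.32 ± 0.48 in D10 and -0.10 ± 0.48 in ND repopulated. Col4a2 had log2 values over ND in the authors' deposited tables of 0.11 ± 0.33 in D6, -0.45 ± 0.35 in D8 depleted, -0.41 ± 0.33 in D8, -0.10 ± 0.33 in D10 repopulated, -0.13 ± 0.33 in D10 and -0.04 ± 0.33 in ND repopulated. Neither gene was called in any deposited table, and the pair had the same sign in each of the 8. The SE of Col4a1 was 0.48 to 0.51 in the authors' 6 deposited tables that contain ND and 0.13 in D8 depleted against D8, where the log2 was -0.06.

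The other collagen IV chains showed 1 call. Col4a3, a chain of the filtration-type network, rose in D6 over ND with a deposited log2 of 0.74 ± 0.27 (FDR p = 0.0281), and its mean was 3.85 in D6 against at most 2.88 in ND in the authors' deposited tables. Its partner chains Col4a4 and Col4a5 were not called in the authors' deposited table of D6, at 0.18 ± 0.30 and -0.11 ± 0.21. Col4a6, a chain of smooth muscle and epithelial sheets, had -1.02 ± 0.46 in D8 depleted and -0.99 ± 0.43 in D8 over ND, neither called in the authors' deposited tables. Col18a1, the source of endostatin, ranged from -0.35 to 0.39 over the authors' deposited tables and was not called.

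Lens markers differed widely between the groups and are given here because the lens capsule is rich in collagen IV, laminin and nidogen. Of 21 lens markers, 8 were higher in D6, 17 lower in D8 depleted, 12 lower in D8, 0 called in D10 repopulated, 1 higher in D10 and 4 higher in ND repopulated, all over ND in the authors' deposited tables. Summed means in the authors' deposited tables were at most 9831 in D6, 94.4 in D8 depleted, 94.4 in D8, 2341 in D10 repopulated, 2617 in D10 and 7829 in ND repopulated, against 3820 in ND. Those sums take upper limits for 1 to 20 of the 21 markers, and a limit does not exclude a mean of 0. Nid1, the nidogen that links laminin to collagen IV, had a log2 over ND of -3.54 ± 0.93 in D8 depleted (FDR p = 0.00125) and -3.20 ± 0.87 in D8 (FDR p = 0.0126) in the authors' deposited tables. In D6 over ND, 8 of 21 lens markers were higher and 0 lower, with log2 values from -1.38 to 7.54 in the authors' deposited table. There Nid1 had -0.22 ± 0.87 and Col4a1 had 0.01. The part of lens RNA in the low values of Nid1, Col4a1, Col4a6, Lama2 and Lama3 was not tested.

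**Figure D3:**
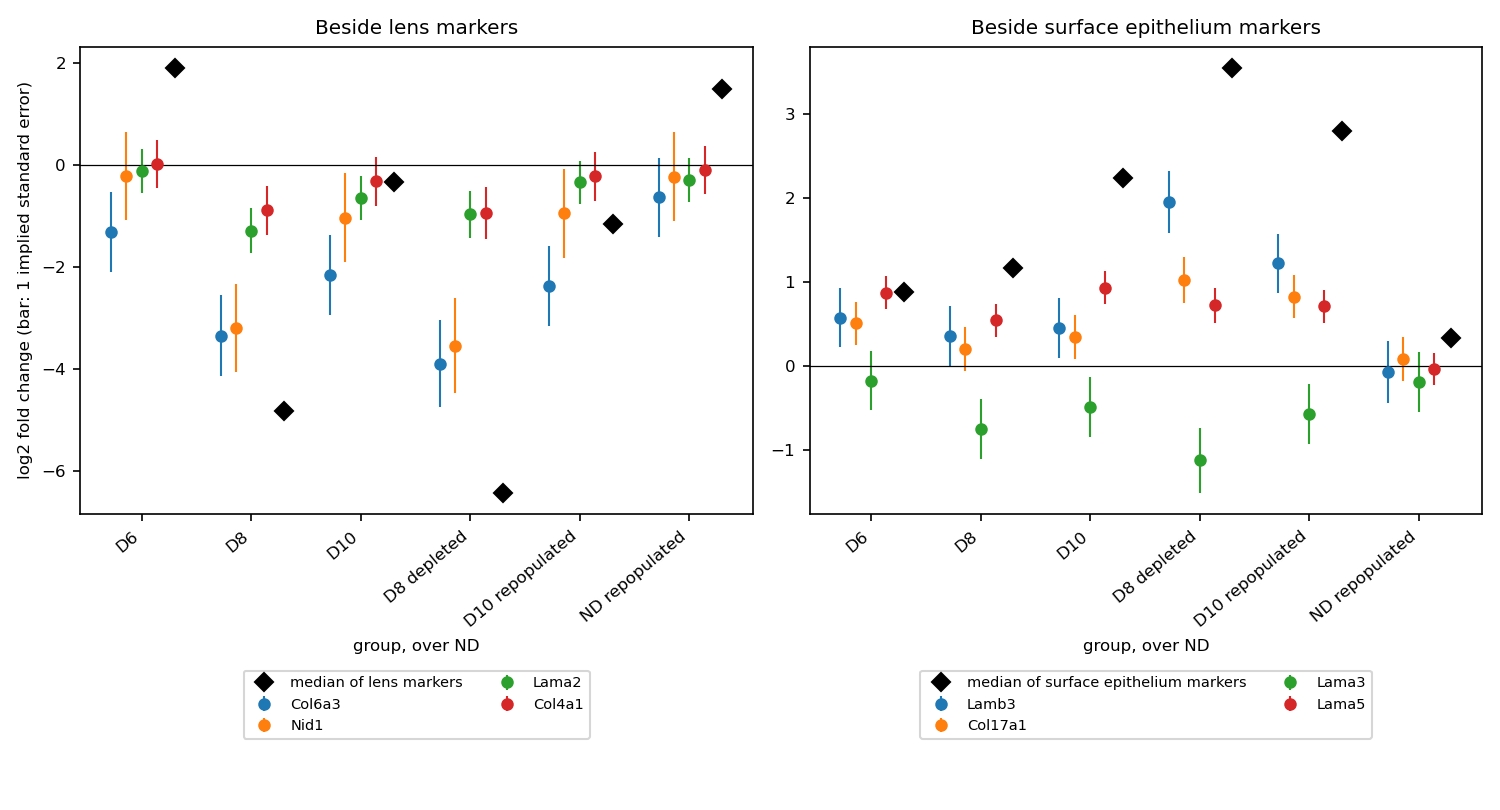
Deposited log2 fold changes over ND (vertical axis) in 6 groups (horizontal axis) for 4 genes each beside the median of lens markers (left) and of surface epithelium markers (right), with bars of 1 implied SE. Col6a3 and Nid1 are lowest in D8 and D8 depleted, where the lens median is -4.83 and -6.43, and Lamb3 is highest in D8 depleted, where the surface epithelium median is 3.55.

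Among the fibrillar collagens, Col5a3, a minor chain of collagen V that helps set fibril diameter (chr9:20681346-20726363, minus strand, GRCm39), was called in the most tables of any member. Its mean in the authors' deposited tables was 1.76 in D6, 2.62 in D8 depleted, 1.77 in D8, 1.78 in D10 repopulated and 1.73 in D10, against at most 1.13 in ND repopulated and in ND. The other 4 diabetic groups lay close together, and D8 depleted stood above them. In the authors' deposited tables its log2 over ND was 1.14 ± 0.16 in D6 (FDR p = 2.18e-10), 1.64 ± 0.17 in D8 depleted (FDR p = 2.18e-19), 1.10 ± 0.16 in D8 (FDR p = 4.18e-09), 1.12 ± 0.16 in D10 repopulated (FDR p = 3.23e-10) and 1.07 ± 0.16 in D10 (FDR p = 2.79e-09). In ND repopulated it was 0.47 ± 0.16, not called in the authors' deposited table.

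The start regions of Col5a3 and Lama5 are shown because these genes were higher in 6 and 4 of the 8 comparisons and because their RefSeq windows hold several GC boxes (GGGCGG on either strand). The windows are on the genes' minus strands at chr9:20815018-20815317 and chr2:180225810-180226109 (GRCm38.p6), 5′ to 3′, with GC boxes in capitals.
Col5a3: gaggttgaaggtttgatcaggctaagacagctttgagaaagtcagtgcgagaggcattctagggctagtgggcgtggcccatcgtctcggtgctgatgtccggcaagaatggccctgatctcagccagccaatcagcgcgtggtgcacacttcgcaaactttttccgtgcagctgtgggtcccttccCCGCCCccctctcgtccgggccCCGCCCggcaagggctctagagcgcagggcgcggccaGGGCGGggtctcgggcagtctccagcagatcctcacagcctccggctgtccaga
Lama5: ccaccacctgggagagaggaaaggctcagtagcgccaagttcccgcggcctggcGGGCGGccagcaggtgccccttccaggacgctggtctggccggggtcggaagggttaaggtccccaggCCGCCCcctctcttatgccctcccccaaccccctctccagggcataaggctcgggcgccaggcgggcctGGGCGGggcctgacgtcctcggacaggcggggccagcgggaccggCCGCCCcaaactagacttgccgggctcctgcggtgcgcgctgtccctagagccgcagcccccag

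Col5a3 held 3 GC boxes and Lama5 held 4, which describes the letters and marks no binding site. Of the 40 members with such a window, 25 (62.5%) held a GC box, beside 35.7% of all 32851 windows. The first share counts genes, which had 44 windows, and the second counts windows, so the shares are of unlike units.

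Col5a1 and Col5a2, the usual partner chains of collagen V, were not called: their log2 values lay between -0.36 and 0.30 and between -0.16 and 0.32 over the authors' 8 deposited tables. Col1a1, a chain of the main collagen of sclera and scar, rose in D6 (0.67 ± 0.23) and in D8 depleted (0.75 ± 0.24) over ND in the authors' deposited tables. Its partner Col1a2 was at -0.06 ± 0.36 and 0.06 ± 0.39 in those 2 of the authors' deposited tables, and Col3a1, which copolymerises with collagen I, at -0.23 ± 0.64 and -0.28 ± 0.68, none called. Col11a2, a collagen XI chain of cartilage, rose in D6 by a log2 of 0.63 ± 0.12 (FDR p = 1.22e-05) and in D8 depleted by 0.77 ± 0.13 over ND in the authors' deposited tables. Col24a1 rose by 0.62 ± 0.19 and 0.61 ± 0.20, and Col27a1 by 0.35 ± 0.13 and 0.36 ± 0.14, in D6 and D8 depleted over ND in the authors' deposited tables. Col27a1 was also called in D8, at a log2 of 0.47 ± 0.13 in the authors' deposited table.

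Col2a1, the main collagen of the vitreous, was lower at 10 weeks. In the authors' deposited tables it was at most 16.7 in D10 repopulated and in D10, against a mean of 24.9 in ND. Its means of 26.8 in D8 depleted and 26.6 in ND repopulated were close to that of ND in the authors' deposited tables. Its log2 over ND was -0.59 ± 0.15 in D10 repopulated (FDR p = 0.00235) and -0.75 ± 0.15 in D10 (FDR p = 2.92e-05) in the authors' deposited tables. It was -0.24 ± 0.15 in D6, 0.06 ± 0.16 in D8 depleted and -0.23 ± 0.15 in D8, none called in the authors' deposited tables.

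Fibril-associated collagens sit on the surface of fibrils. Col9a1, a chain of the collagen IX that coats vitreous fibrils, had a mean in the authors' deposited tables of 25.5 in D6, 35.1 in D8 depleted, 27.2 in D8, 18.7 in D10 repopulated and 20.0 in ND repopulated. It was at most 17.7 in D10 and in ND in the authors' deposited tables. The 6 and 8 week groups were above the others. Col9a1 rose over ND in the authors' deposited tables by a log2 of 0.64 ± 0.20 in D6, 1.03 ± 0.21 in D8 depleted (FDR p = 1.78e-05) and 0.68 ± 0.20 in D8, and was at 0.16 ± 0.20 in D10 repopulated and 0.07 ± 0.20 in D10. Col9a2 rose in D6 (0.34 ± 0.13) and D8 depleted (0.81 ± 0.14, FDR p = 6.95e-07) over ND in the authors' deposited tables, while Col9a3, the remaining chain, was called in no deposited table. Col19a1, a minor basement-membrane-zone collagen, rose in D6 (1.19 ± 0.41) and in D10 repopulated (1.56 ± 0.40, FDR p = 0.00221) over ND in the authors' deposited tables. Col16a1 rose in D8 depleted (0.64 ± 0.19), and Col20a1 fell in D10 (-0.43 ± 0.14) over ND in the authors' deposited tables. Col12a1, Col14a1 and Col22a1 were called in no deposited table.

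Collagen VI showed chains moving in opposite directions. Col6a1, a core chain of the microfibril (chr10:76544626-76562002, minus strand, GRCm39), had a mean in the authors' deposited tables of 36.9 in D6, 48.0 in D8 depleted, 32.5 in D8, 30.1 in D10 repopulated and 29.5 in D10, against at most 27.5 in ND repopulated and in ND. Col6a1 rose over ND in the authors' deposited tables by a log2 of 0.63 ± 0.14 in D6 (FDR p = 9.96e-05) and 0.93 ± 0.15 in D8 depleted (FDR p = 2.33e-08). Col6a2, the other core chain, rose in the same 2 of the authors' deposited tables, by 0.49 ± 0.14 and 0.70 ± 0.14. Col6a4, Col6a5 and Col6a6, chains that can join the core chains in place of Col6a3, rose in D6 by 0.61 ± 0.17, 1.26 ± 0.32 and 0.79 ± 0.23, and in D8 depleted by 0.77 ± 0.18, 1.34 ± 0.34 and 0.88 ± 0.25, over ND in the authors' deposited tables. Col6a6 was also higher in D10 repopulated (0.73 ± 0.23) and in D10 (0.74 ± 0.23) over ND in the authors' deposited tables.

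Col6a3, the usual partner of the core chains (chr1:90693645-90771693, minus strand, GRCm39), was lower. It was at most, in the authors' deposited tables, 0.743 in D6, 0.0744 in D8 depleted, 0.0744 in D8, 0.170 in D10 repopulated, 0.170 in D10 and 0.743 in ND repopulated, against a mean of 0.743 in ND. Its log2 over ND in the authors' deposited tables was -3.90 ± 0.85 in D8 depleted (FDR p = 7.80e-05), -3.35 ± 0.79 in D8 (FDR p = 0.00174) and -2.38 ± 0.78 in D10 repopulated (FDR p = 0.0260). In D6 it was -1.32 ± 0.78, in D10 -2.16 ± 0.78 and in ND repopulated -0.64 ± 0.78, none called in the authors' deposited tables. Its SE was 0.78 to 0.85 in the authors' deposited tables with ND and 0.42 in D8 depleted against D8. Of 21 lens markers, 17 were lower in D8 depleted, 12 in D8 and 0 in D10 repopulated over ND, with a median log2 of -6.43, -4.83 and -1.15 in the authors' deposited tables, and their part in the values of Col6a3 was not tested. Of 10 fibroblast and sclera markers, 0 were lower in D8, 2 in D8 depleted and 1 in D10 repopulated over ND in the authors' deposited tables, where 1 was higher in each. Their summed means in the authors' deposited tables, with limits for 2 to 8 of 10, lay between 24.3 and 33.6, and 1 marker was at 0 in D8 and 1 in ND.

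Col7a1, the anchoring fibril collagen under epithelia, rose in D6 (0.46 ± 0.13) and D8 depleted (0.66 ± 0.14) over ND in the authors' deposited tables. The short-chain collagens Col8a1, Col8a2 and Col10a1, of Descemet's membrane and growth plate, were called in no deposited table. Among transmembrane and other collagens, Col13a1, of muscle and nerve junctions, rose over ND by a log2 of 1.12 ± 0.25 in D6, 1.23 ± 0.27 in D8 depleted and 0.91 ± 0.25 in D10 repopulated in the authors' deposited tables. Col15a1, of the zone around capillaries, rose by 0.54 ± 0.17 in D6, 0.56 ± 0.18 in D8 depleted and 0.58 ± 0.17 in D8 over ND in the authors' deposited tables. Col25a1, a neuronal collagen, rose in D6 (0.54 ± 0.15), and Col28a1, of nerve and glia, rose in D8 depleted (1.56 ± 0.37) over ND in the authors' deposited tables. Col17a1, the hemidesmosome collagen that binds the epithelial laminin, had a mean of 1.61 in D6, 2.44 in D8 depleted, 1.36 in D8, 2.10 in D10 repopulated and 1.49 in D10, against at most 1.23 in ND repopulated and ND in the authors' deposited tables. It rose in D8 depleted (1.03 ± 0.27, FDR p = 0.00158) and D10 repopulated (0.83 ± 0.26) over ND in the authors' deposited tables, the 2 groups in which surface epithelium markers had their highest sums. The part of that tissue in the values of Col17a1 was not tested.

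Depletion was read from D8 depleted against D8, the comparison within diabetes at 8 weeks. PBS and the run of title numbers of D8 cannot be told apart from depletion there. That comparison had 7 members higher and 1 lower in the authors' deposited table, beside 5.85% higher and 4.9% lower among all genes tested, and 11 of 55 had an unadjusted p under 0.05. The 7 were Lamb3 and 6 collagens outside the basement membrane. Lamb3 rose by a log2 of 1.59 ± 0.37 (FDR p = 0.00124) and Col17a1 by 0.82 ± 0.24 (FDR p = 0.0118) in the authors' deposited table. Col5a3, Col6a1 and Col7a1 rose by 0.54 ± 0.17 (FDR p = 0.0230), 0.54 ± 0.15 (FDR p = 0.0108) and 0.53 ± 0.14 (FDR p = 0.00373) in the authors' deposited table. Col9a2 rose by 0.60 ± 0.15 (FDR p = 0.00305) and Col11a2 by 0.45 ± 0.14 (FDR p = 0.0149) in the authors' deposited table. Col11a1, another collagen XI chain, fell by 0.51 on the log2 scale (SE 0.18, FDR p = 0.0410) in the authors' deposited table. Col28a1 was just outside, at 1.15 ± 0.42 with an FDR p of 0.0514 in the authors' deposited table. Collagen IV was at -0.06 ± 0.13 for Col4a1 and -0.04 ± 0.13 for Col4a2 in the authors' deposited table.

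Markers of other tissues also differed in that comparison. Between D8 depleted and D8 in the authors' deposited table, 7 of 10 surface epithelium markers, 5 of 12 pigment epithelium and choroid markers and 4 of 5 blood cell markers tested were higher. There, 13 of 19 lens markers tested and 3 of 10 retinal markers were lower in the authors' deposited table. Summed means for pigment epithelium and choroid in the authors' deposited tables were at most 113 in D8 depleted and 62.6 in D8, with upper limits for 5 and 10 of the 12. Lens markers summed to at most 94.4 in each of these groups in the authors' deposited tables. The part of these tissues in the 8 calls was not tested.

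**Figure D4:**
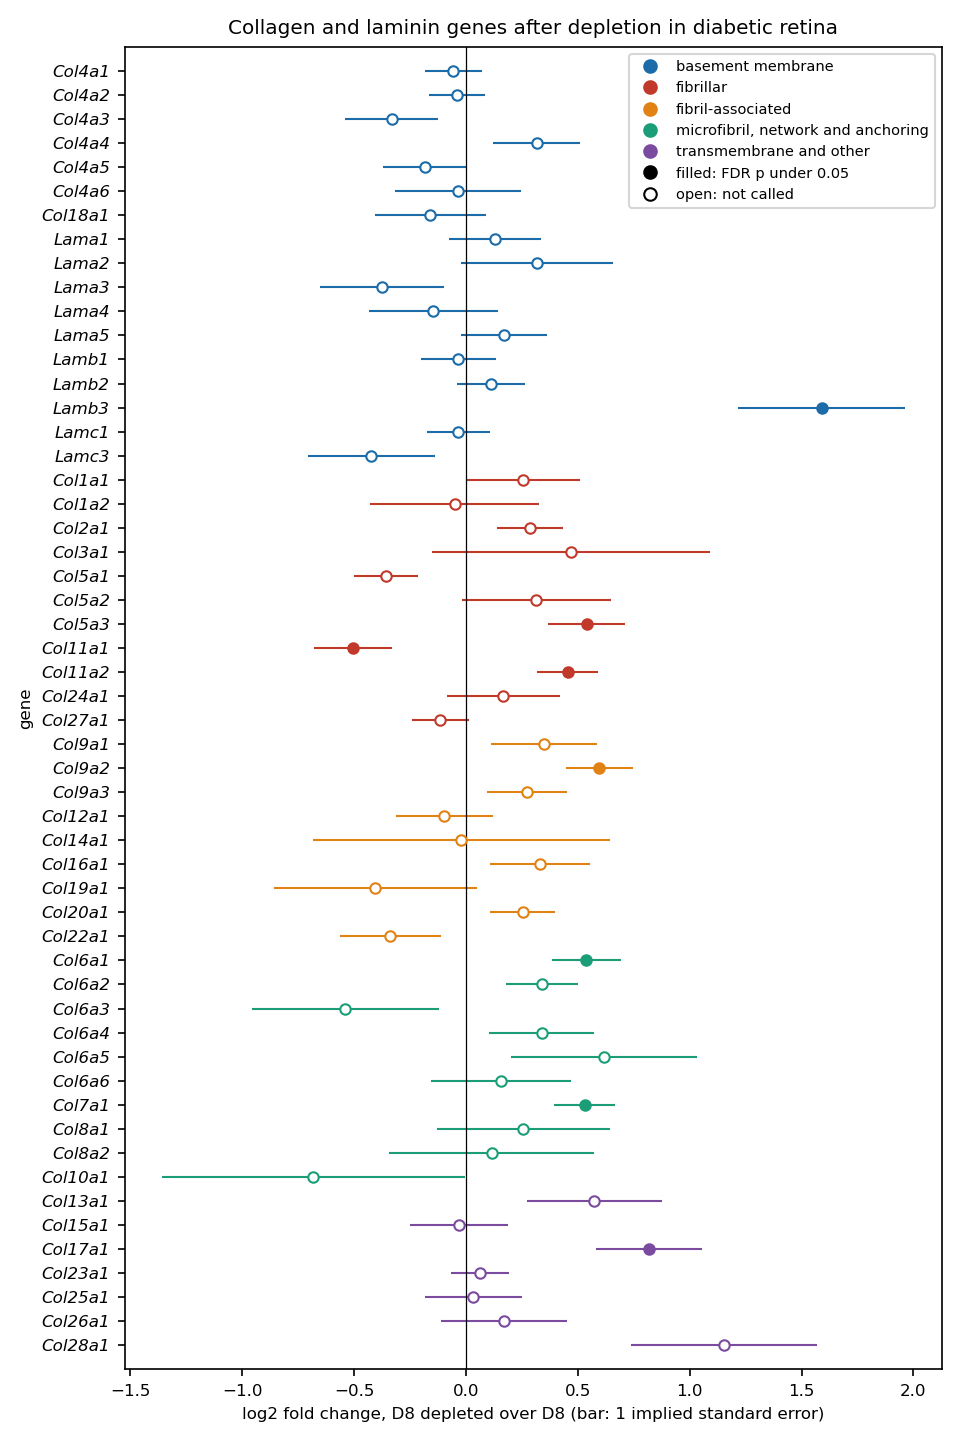
Deposited log2 fold change of D8 depleted over D8 (horizontal axis) for 54 members (vertical axis), with bars of 1 implied SE and filled points where the deposited FDR p was under 0.05. The filled points are Lamb3 at 1.59, 6 collagens between 0.45 and 0.82, and Col11a1 at -0.51, while Col4a1 and Col4a2 lie near 0.

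After 2 weeks of recovery, no member was called against D10, the PBS group of the same diabetic duration. Microglia markers were still lower in part: in D10 repopulated, 3 of 10 were lower than in D10 and 6 lower than in ND in the authors' deposited tables, with medians of -0.94 and -0.67. The test in the authors' deposited table of D10 repopulated against D10 called 0 of 55 members, beside 0.178% higher and 0.267% lower among all genes. Unadjusted p-values were under 0.05 for 3 members: Col18a1 at -0.35 ± 0.16, Lamb3 at 0.76 ± 0.39 and Col19a1 at 0.84 ± 0.42 in the authors' deposited table. The 6 collagens that were higher in D8 depleted over D8 were at 0.05 ± 0.17 (Col5a3), 0.03 ± 0.15 (Col6a1), 0.15 ± 0.12 (Col7a1), -0.01 ± 0.13 (Col9a2), 0.04 ± 0.12 (Col11a2) and 0.48 ± 0.31 (Col17a1) in D10 repopulated over D10 in the authors' deposited table.

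The difference between those effects was tested directly, since the 2 comparisons share no samples. The effect of repopulation minus the effect of depletion was called for 0 of 55 members after Benjamini-Hochberg adjustment over 16671 genes, beside 0.654% of all genes. It had an unadjusted p under 0.05 for 6 members. The nearest was Col9a2, at -0.60 ± 0.20 with an adjusted p of 0.136, followed by Col6a1 at -0.51 ± 0.22 with an adjusted p of 0.310. The loss of the depletion calls after repopulation is thus not shown to be a difference between the effects. The effect of repopulation in diabetic minus that in non-diabetic retina was called for 0 of 54 members, beside 0.188% of all genes, and 1 member, Col27a1 at -0.30 ± 0.15, had an unadjusted p under 0.05. For the first of these tests, data of 16671 genes were simulated, with normal errors of each gene's own SE. Differences were planted only in genes whose larger mean in D10 repopulated against D10 was over 1. Col3a1, at 0.225 there, lay below that. Of the planted differences, 82% of those of 1 and 97% of those of 2 on the log2 scale were recovered. These shares are not particular to the members, whose median SE was larger. In D8 depleted against D8 it was 0.23, beside 0.16 for all genes tested. Differences of 1 or more could thus be missed in members, as could smaller ones. Col3a1, at -1.48 ± 0.85 in the first test, was not called.

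No deposited table compares the diabetic durations with each other, so they are given as differences of the deposited log2 fold changes over ND, with no test. From 6 to 8 weeks, D8 minus D6, the median over the 55 members was -0.18 and 11 were above 0, beside a median of -0.02 over all genes. Lama2 was at -1.17 and Col6a3 at -2.04 in D8 minus D6. From 8 to 10 weeks, D10 minus D8, the median over all genes was 0.002. In D10 minus D8 the basement membrane genes had a median of 0.20 with 16 of 18 above 0, and the other collagens had -0.08 with 15 of 37 above 0. In that step Col9a1 was the lowest member at -0.61. Between D10 repopulated and D8 depleted, the basement membrane genes had a median of 0.26 and the other collagens -0.28, beside -0.0009 over all genes. In it Col9a1 was at -0.87, Col9a2 at -0.86, Col6a1 at -0.64 and Col11a2 at -0.64. The median log2 of lens markers over ND was 1.89 in D6, -4.83 in D8 and -0.34 in D10 in the authors' deposited tables. It was -6.43 in D8 depleted and -1.15 in D10 repopulated, and the part of lens RNA in these steps was not tested. The step from D6 to D8 crosses groups without and with PBS, and with different runs of title numbers.

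The partners of collagen and laminin were examined as lists. Among all genes tested, 14.1% were higher and 9.31% lower in D6, and 15.5% and 13% in D8 depleted, over ND. The shares were 2.33% and 0.583% in D8, 7.49% and 4.19% in D10 repopulated and 5.59% and 1.41% in D10. A count near these shares is no result particular to a list. Of 30 genes that modify, process and cross-link collagen, 7 were higher and 3 lower in D6, 9 and 2 in D8 depleted, 2 and 2 in D8, 5 and 3 in D10 repopulated and 5 and 1 in D10 over ND in the authors' deposited tables. Loxl4, a lysyl oxidase that cross-links collagen, had log2 values over ND in the authors' deposited tables of 3.00 ± 0.49 in D8 depleted, 2.20 ± 0.47 in D8, 2.01 ± 0.47 in D10 repopulated and 3.25 ± 0.46 in D10. Bmp1, which trims procollagen ends, rose in D6 (0.77 ± 0.17), D8 depleted (0.86 ± 0.18) and D10 (0.59 ± 0.17) over ND in the authors' deposited tables. P4ha1, a prolyl hydroxylase, fell in D6 (-0.74 ± 0.16) and in D10 repopulated (-0.74 ± 0.16) over ND in the authors' deposited tables. The list's median log2 over ND was 0.01 in D6, 0.19 in D8 depleted, -0.01 in D8, 0.03 in D10 repopulated and 0.07 in D10 in the authors' deposited tables.

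Of 27 matrix proteases and inhibitors, 7 were higher and 3 lower in D6, 6 and 3 in D8 depleted, 3 and 0 in D8, 10 and 0 in D10 repopulated and 9 and 0 in D10 over ND in the authors' deposited tables. Timp1, an inhibitor of matrix metalloproteinases, had log2 values in the authors' deposited tables of 3.96 ± 0.53 in D6, 3.13 ± 0.57 in D8 depleted, 3.39 ± 0.54 in D8, 3.94 ± 0.53 in D10 repopulated and 4.59 ± 0.53 in D10 over ND. Adamts9, a proteoglycan-cleaving protease, had deposited values of 2.36 ± 0.34, 2.32 ± 0.36, 1.60 ± 0.34, 2.59 ± 0.34 and 2.67 ± 0.34 in the same order of groups. Mmp3, stromelysin, rose in D8 depleted over D8 by 2.49 ± 0.85 (FDR p = 0.0382) in the authors' deposited table.

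Of 22 basement membrane partners, 2 were higher and 4 lower in D6, 2 and 4 in D8 depleted, 0 and 2 in D8, 1 and 0 in D10 repopulated and 1 and 1 in D10 over ND in the authors' deposited tables. Agrn, the heparan sulphate proteoglycan of the inner limiting membrane, rose in D6 (0.41 ± 0.12) and in D8 depleted (0.66 ± 0.12) over ND and in D8 depleted over D8 (0.43 ± 0.13) in the authors' deposited tables. Ntn4, a netrin that binds laminin gamma chains, fell over ND in D6 (-0.63 ± 0.20), D8 depleted (-0.85 ± 0.21), D8 (-0.67 ± 0.20) and D10 (-0.73 ± 0.20) in the authors' deposited tables. Of 20 receptors for collagen and laminin, 5 were higher and 1 lower in D6, 2 and 3 in D8 depleted, 1 and 0 in D8, 3 and 1 in D10 repopulated and 4 and 0 in D10 over ND in the authors' deposited tables. These counts stand beside the shares of all genes given above for each comparison. Mcam, which binds vascular laminin, rose in D6 (1.00 ± 0.25), D8 (1.01 ± 0.25), D10 repopulated (1.21 ± 0.25) and D10 (1.45 ± 0.25) over ND in the authors' deposited tables. Dag1, the dystroglycan that holds laminin at Muller cell endfeet, fell in D6 (-0.46 ± 0.12) and D8 depleted (-0.64 ± 0.13) over ND in the authors' deposited tables. None of these 4 lists, nor the TGF-beta list, had a member called in the authors' deposited tables of ND repopulated against ND or D10 repopulated against D10. Among all genes, 0.0844% were higher and 0.0714% lower in the first, and 0.178% and 0.267% in the second. The absence of calls is thus no result particular to the lists.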

How the data were processed

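Retinal RNA was enriched for poly(A), made into stranded libraries and sequenced as paired reads of 100 bases, per the labels' protocols. The genome was GRCm39 and base calls were converted with bcl2fastq, per the submitters' processing notes. Which aligner, counter and statistical test were applied is not given in the sources used here. Each of 8 tables that the authors deposited lists 25655 genes with the larger of 2 group means (a signal whose unit and scaling are not stated), a p-value, an FDR p and a log2 fold change. The signed fold change that the authors deposited beside them, a score, was not used. The deposited FDR p matched a Benjamini-Hochberg adjustment to within 0.000489. Without values per sample, depth and counting error are unknown.

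From these values, each SE was computed as the log2 fold change over the normal quantile of its p. The table of D10 against D10 repopulated had its sign turned. A mean that recurred in 2 or more tables sharing 1 group (relative tolerance 1e-06) was taken as that group's mean. Ratios of such means differed from the deposited log2 fold change by a median of 0.022 over 104 pairs. Differences between effects were tested with a normal test, variances added, after a check on simulated data. A single member is counted but not reported singly here. Named were the other members called in any table plus 17 chosen collagens and laminins, and, of other lists, genes among the 4 smallest p in a comparison. Outside that rule, Col4a4, Col4a5, Col4a6, Col5a1, Col5a2, Col8a1, Col8a2, Col9a3, Col10a1, Col12a1, Col14a1 and Col22a1, called in no table, were named after their values were seen. The members and lists were chosen with earlier results of these data known. Python 3.11.15, pandas 2.3.3, scipy 1.17.1 and matplotlib 3.10.9 were used. Alternatives were thresholds of 0.01 and 0.1, leaving out the 40% of genes with the smallest larger mean, and leaving out predicted genes. Promoter windows came from RefSeq (GRCm38.p6), and no coordinate was converted between builds.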

Additional observations from a re-analysis of the deposited data

How the results depend on the processing

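Of 50 alternative values, 43 stayed within the limit set for them and 7 moved. Leaving out the 40% of genes with the smallest larger mean, which kept 22 to 25 of the 55 members in these comparisons, gave 10 called in D6, 11 in D8 depleted, 2 in D8, 2 in D10 repopulated and 3 in D10 over ND, against 20, 23, 5, 10 and 6 with all members. Of all genes kept, 31.5%, 35.8%, 2.69%, 12.6% and 6.10% were called in the same comparisons. A threshold of 0.01 gave 2 called in D8 over ND and 3 in D8 depleted over D8, against 5 and 8. Fewer members kept or a stricter threshold lowers the counts, but shares changed too. In D10 repopulated over ND, 18.2% of all 55 members were called, beside 7.49% of all genes higher and 4.19% lower. Among the members kept there, 2 of 22 were called, a share below the 12.6% of all genes kept. Col5a3, Lamb3, Col6a3 and Col6a6 were called there with all members but were among those left out. The median log2 of members in D10 over ND was -0.01 among the 22 kept and 0.12 among all. The difference tests gave 0 called members at each threshold tried. No paired analysis was possible because the tables hold no values per sample, and for the same reason no sample could be left out. Differences between tables did not close to rounding (median gaps of 0.00764 and 0.00424 log2), so the steps between durations carry no test, and their alternatives that need one were not run. Depth limits could not be set.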

Other observations

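TGF-beta is the classical inducer of collagen genes, and its ligands, receptors and matrix targets were read as a list of 19 genes. Of these, 3 were higher and 2 lower in D6, 4 and 2 in D8 depleted, 1 and 1 in D8, 3 and 2 in D10 repopulated and 2 and 1 in D10 over ND in the authors' deposited tables. These counts stand beside the shares of all genes given above for each comparison, and a count near them is no result particular to the list. Tgfbi, a secreted matrix protein, had log2 values over ND in the authors' deposited tables of 1.42 ± 0.44 in D6, 2.61 ± 0.47 in D8 depleted, 2.84 ± 0.44 in D10 repopulated and 1.90 ± 0.44 in D10, all called, and 1.08 ± 0.45 in D8, not called. Ccn1, a matricellular immediate early gene, rose over ND in D6 (1.81 ± 0.38), D8 (1.49 ± 0.38), D10 repopulated (1.80 ± 0.38) and D10 (2.28 ± 0.38) in the authors' deposited tables. Its relative Ccn2 went the other way, at -1.12 ± 0.24 in D8 and -1.06 ± 0.24 in D10 repopulated over ND, and rose in D8 depleted over D8 by 0.83 ± 0.16 (FDR p = 7.28e-05) in the authors' deposited tables. In that one of the authors' deposited tables Tgfbi (1.52 ± 0.46) and Fbn2 (1.01 ± 0.32), a microfibril protein, were also higher, while the receptor Tgfbr2 (-0.89 ± 0.29) was lower.

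Markers of vessel cells were read as 2 lists of 10 genes. Of 10 endothelial markers, 2 were higher and 2 lower in D6, 2 and 2 in D8 depleted, 0 and 0 in D8, 1 and 2 in D10 repopulated and 2 and 2 in D10 over ND in the authors' deposited tables, beside the shares of all genes given above for each comparison. Their means summed to at most 47.0 to 51.4 in the 7 groups, with upper limits for 2 to 8 of the 10, in the authors' deposited tables. Of 10 mural cell markers, 0 were higher in any deposited table, and 2 were lower in D6, 2 in D8 depleted and 2 in D10 over ND.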
